A study of Mus musculus with 12 samples.

Results

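Bile acids are made from cholesterol in hepatocytes, and the 10 genes examined here encode enzymes of this synthesis and of the final joining of bile acids to taurine or glycine. The genes were taken by name: *Cyp7a1* and *Cyp8b1* of the classic route, *Cyp27a1*, *Cyp7b1* and *Cyp39a1* of the alternative routes, *Hsd3b7* and *Akr1d1*, which modify the sterol rings in both, *Amacr*, which acts on the side chain, and *Slc27a5* and *Baat*, which conjugate. All 10 were found among the 24340 gene entries of the liver table and again among the 24340 of the 3T3 table. Their RNA was compared after loss of HNF4A, a nuclear receptor that controls hepatocyte genes, in mouse liver and after its ectopic expression in fibroblasts.

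RNA-seq was done on 3 control livers, 3 *Hnf4a* cKO livers, 3 samples of 3T3 cells with empty vector and 3 samples of 3T3 cells with ectopic HNF4A (HNF4A EE). The cKO mice were adults with floxed *Hnf4a* alleles (*Hnf4a* fl/fl) and *Alb-CreERT2*, a tamoxifen-inducible Cre under the *Albumin* promoter, and their livers were taken on day 7 of tamoxifen. The labels name hepatocytes, while by the methods RNA came from pulverized whole livers. The controls are labelled WT. By the methods they were *Hnf4a* fl/fl mice without Cre or tamoxifen, by a figure legend mice of the same genotype without tamoxifen, so the effects of tamoxifen (and of Cre, if the methods hold) cannot be told apart from those of HNF4A loss. NIH 3T3 is a line of mouse embryonic fibroblasts. Both groups of cells were transduced, one with a lentiviral construct of mouse *Hnf4a* (isoform 2) linked to eGFP and the other with an empty vector. They were collected 72 h later.

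Each table holds 1 FPKM per gene and group, the authors' value over the 3 samples (FPKM, fragments per kilobase of exon scaled to the size of the library). Neither table has values of single samples or read counts, so the spread between samples and the depth are unknown and no p-value is given. A difference has no replicate check, and the report describes group values only. Log2 ratios were taken after adding 1 FPKM to both groups, and a gene is called lower or higher at a log2 ratio of −0.5 or 0.5, the fold in the methods, if it had 1 FPKM or more in at least 1 group. These calls are by size alone.

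In the classic route, cholesterol is first hydroxylated on the ring by CYP7A1, the slowest and most regulated step. In the alternative route the mitochondrial CYP27A1 oxidizes the side chain first and CYP7B1 hydroxylates the ring afterwards, while CYP39A1 does the same for a sterol that is mainly formed in brain. HSD3B7 then modifies the rings, CYP8B1 can hydroxylate its product and so direct it towards cholic acid, and AKR1D1 reduces the ring next. AMACR prepares the shortening of the side chain, which takes place in peroxisomes. SLC27A5 activates bile acids with coenzyme A, and BAAT adds the amino acid, which in mice is mostly taurine.

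*Hnf4a* itself had 275 FPKM in control livers and 144 FPKM in cKO livers, a log2 ratio of −0.93. These are RNA levels, and for the protein the paper reports effective depletion in hepatocytes by western blot. RNA outside the floxed part of the gene can still be counted in its FPKM. Whether this accounts for the 144 FPKM was not tested, since there are no values of single exons. In 3T3 cells *Hnf4a* had 0.639 FPKM with the empty vector and 1758 FPKM in HNF4A EE cells, rank 14 of all entries by level.

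Loss of HNF4A was accompanied by much lower levels of both classic enzymes and both conjugating enzymes, whereas the first enzyme of the alternative route, *Akr1d1* and *Amacr* differed by less than the threshold. Of the 10 genes 6 were lower in cKO livers, 1 was higher and 3 were neither. All 10 had 1 FPKM or more in at least 1 liver group. Over all 11275 liver entries with such a level, 19.1% were lower and 15.5% were higher, and among the 3203 entries with 20 FPKM or more in control livers, a level that all 10 enzymes had, 34% were lower. The median log2 ratio over the 10 genes was −2.52, beside −0.01 over the 11275 entries and −0.18 over the 3203.

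**Figure D1:**
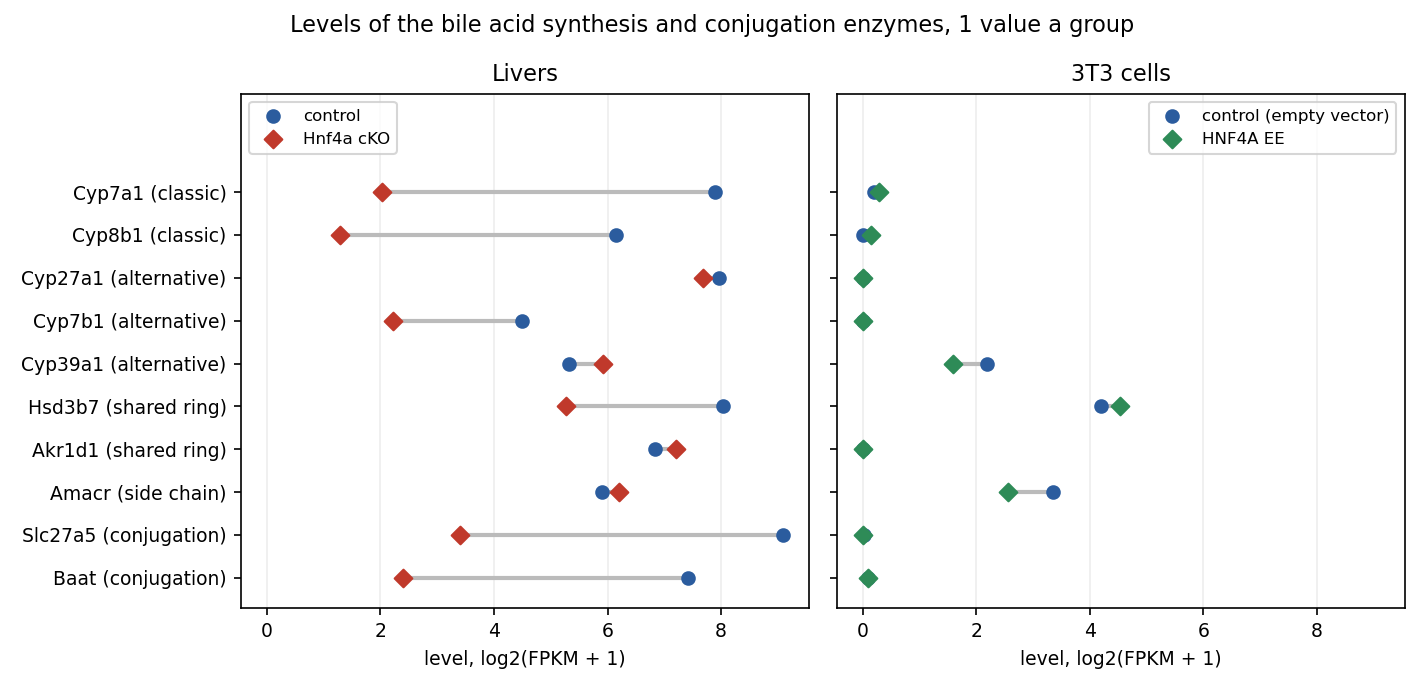
Level of each enzyme, as log2(FPKM + 1), in control and *Hnf4a* cKO livers (left) and in control and HNF4A EE 3T3 cells (right), with 1 point for the authors' value of each group and a grey line between the groups, and no error because single samples are not in the tables. In the livers *Cyp7a1*, *Cyp8b1*, *Slc27a5* and *Baat* have the longest lines, and in 3T3 cells 7 of the 10 genes lie near 0 in both groups, with the 2 markers drawn over each other.

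*Cyp7a1* (chr4:6265612-6275633, minus strand, GRCm38) had 235 FPKM in control livers and 3.10 FPKM in cKO livers. The level was 75.9-fold lower, and its log2 ratio of −5.85 had rank 22 from the lowest of the 11275. By level *Cyp7a1* went from rank 396 of all entries in control livers to rank 8556 in cKO livers. Its 6 exons overlap no exon of another gene in the GENCODE annotation.

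*Cyp8b1* (chr9:121914356-121916305, minus strand), a gene of 1 exon, had 69.9 FPKM in control livers and 1.44 FPKM in cKO livers. This is 48.6-fold lower, with a log2 ratio of −4.86 on the scale with 1 FPKM added. Relative to *Cyp7a1*, which was the more abundant of the pair, its level was 3.36-fold lower in control livers and 2.15-fold lower in cKO livers. The level of *Cyp8b1* in cKO livers was the lowest of the 10.

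The alternative route did not move as one. *Cyp27a1* (chr1:74713574-74737892, plus strand) had 248 FPKM in control livers and 204 FPKM in cKO livers, 82.3% of the control level, with a log2 ratio of −0.28 that lies inside the middle 50% of all entries (−0.36 to 0.31) and becomes 0.11 if both groups are set to the same FPKM total. *Cyp7b1* (chr3:18071950-18243338, minus strand), which follows *Cyp27a1* in the pathway, had 21.6 FPKM in control livers and 3.68 FPKM in cKO livers, 5.88-fold lower, with a log2 ratio of −2.27. *Cyp39a1* (chr17:43667425-43751431, plus strand) had 38.8 FPKM in control livers and 59.2 FPKM in cKO livers, 1.53-fold higher, and its log2 ratio of 0.60 was the only one of the 10 at or above 0.5. Thus 1 of the 3 genes was lower, 1 higher and 1 neither.

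The entry genes of the 2 routes had close levels in control livers and distant ones in cKO livers. The FPKM of *Cyp27a1* was 1.05 times that of *Cyp7a1* in control livers and 65.8 times in cKO livers. *Cyp7a1* was 10.9 times as abundant as *Cyp7b1*, the other ring hydroxylase of its family, in control livers, and 0.842 times in cKO livers. *Cyp39a1* exceeded *Cyp7b1* by 1.80-fold in control livers and by 16.1-fold in cKO livers. Since the FPKM of both genes of a pair come from the same libraries, these ratios do not depend on the scaling between groups.

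The upstream sequences of *Cyp8b1*, which was lower, and *Cyp27a1*, which was not called, are shown because the genes belong to the classic and the alternative route and HNF4A binds DNA at sites that resemble CAAAGTCCA. RefSeq promoter windows on GRCm38.p6 were matched for 4 of the 10 genes, *Cyp8b1*, *Cyp27a1*, *Hsd3b7* and *Akr1d1*, and the 250 bases before the annotated start were searched on both strands. Capitals mark matches to CAAAGNNCA, a relaxed form that contains CAAAGTCCA. The window of *Cyp8b1* is chr9:121916306-121916555 on the minus strand, and that of *Cyp27a1* is chr1:74713285-74713534 on the plus strand.
Cyp8b1: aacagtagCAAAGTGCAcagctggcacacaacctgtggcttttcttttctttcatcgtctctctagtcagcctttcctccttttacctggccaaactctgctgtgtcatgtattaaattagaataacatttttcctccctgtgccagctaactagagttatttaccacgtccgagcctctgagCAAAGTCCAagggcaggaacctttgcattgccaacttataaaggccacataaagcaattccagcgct
Cyp27a1: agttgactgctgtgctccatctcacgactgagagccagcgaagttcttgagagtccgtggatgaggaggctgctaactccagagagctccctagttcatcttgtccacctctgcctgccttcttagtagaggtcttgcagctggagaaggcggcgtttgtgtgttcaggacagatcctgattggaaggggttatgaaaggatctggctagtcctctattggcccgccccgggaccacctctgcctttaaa

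The window of *Cyp8b1* held CAAAGTCCA from base 67 to base 59 before the start and a second match to the relaxed form, CAAAGTGCA, from base 242 to base 234. The window of *Hsd3b7*, which was also lower in cKO livers, held CAAAGGACA on the opposite strand from base 133 to base 125, and those of *Cyp27a1* and *Akr1d1* held no match. *Cyp7a1*, *Cyp7b1*, *Slc27a5* and *Baat*, which were lower too, had no matched window and were not searched. Matches therefore cannot be set against the calls of the enzymes. Of all 32851 windows of this length 0.384% held CAAAGTCCA and 5.49% held the relaxed form. CAAGGTCA, a motif of NR5A2, occurred in none of the 4 windows and in 1.33% of all windows. For NR5A2 only these exact letters were searched, without a relaxed form, so sites that resemble them were not counted. A match describes letters in this window only, and no binding was measured in these tables.

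The ring enzymes that serve both routes differed from each other. *Hsd3b7* (chr7:127800604-127803802, plus strand), which acts on the products of CYP7A1 and CYP7B1, had 259.6 FPKM in control livers and 37.5 FPKM in cKO livers, 6.93-fold lower, with a log2 ratio of −2.76. Its exons overlap *Gm49388* on the same strand and *9430064I24Rik* on the other, and the strand setting of the counting is not given in the sources used here, so its value may include reads of these genes. *Akr1d1* (chr6:37530173-37568815, plus strand), the reductase of the next ring step, had 114 FPKM in control livers and 146 FPKM in cKO livers, with a log2 ratio of 0.36. The FPKM of *Hsd3b7* was 2.28 times that of *Akr1d1* in control livers and 0.256 times in cKO livers.

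*Amacr* (chr15:10981756-10996626, plus strand), a racemase of bile acid intermediates and of branched fatty acids, had 58.8 FPKM in control livers and 72.3 FPKM in cKO livers. Its log2 ratio of 0.29 lies inside the middle 50% of all entries.

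Both conjugation genes were lower, by amounts near those of the classic route. *Slc27a5* (chr7:12988346-12998192, minus strand) had 546 FPKM in control livers, the highest level of the 10, and 9.56 FPKM in cKO livers. This is 57.1-fold lower, a log2 ratio of −5.69, and its rank by level went from 149 to 5082. *Baat* (chr4:49489422-49506557, minus strand) had 170.0 FPKM in control livers and 4.26 FPKM in cKO livers, 39.9-fold lower, with a log2 ratio of −5.02. The 2 conjugation genes and the 2 classic genes all lay between −5.85 and −4.86. The upper of these values, that of *Cyp8b1*, had rank 60 from the lowest of the 11275 entries. The 3 alternative genes lay between −2.27 and 0.60, and the ring and side chain genes between −2.76 and 0.36. No test of this difference between steps is possible with 1 value per group.

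**Figure D2:**
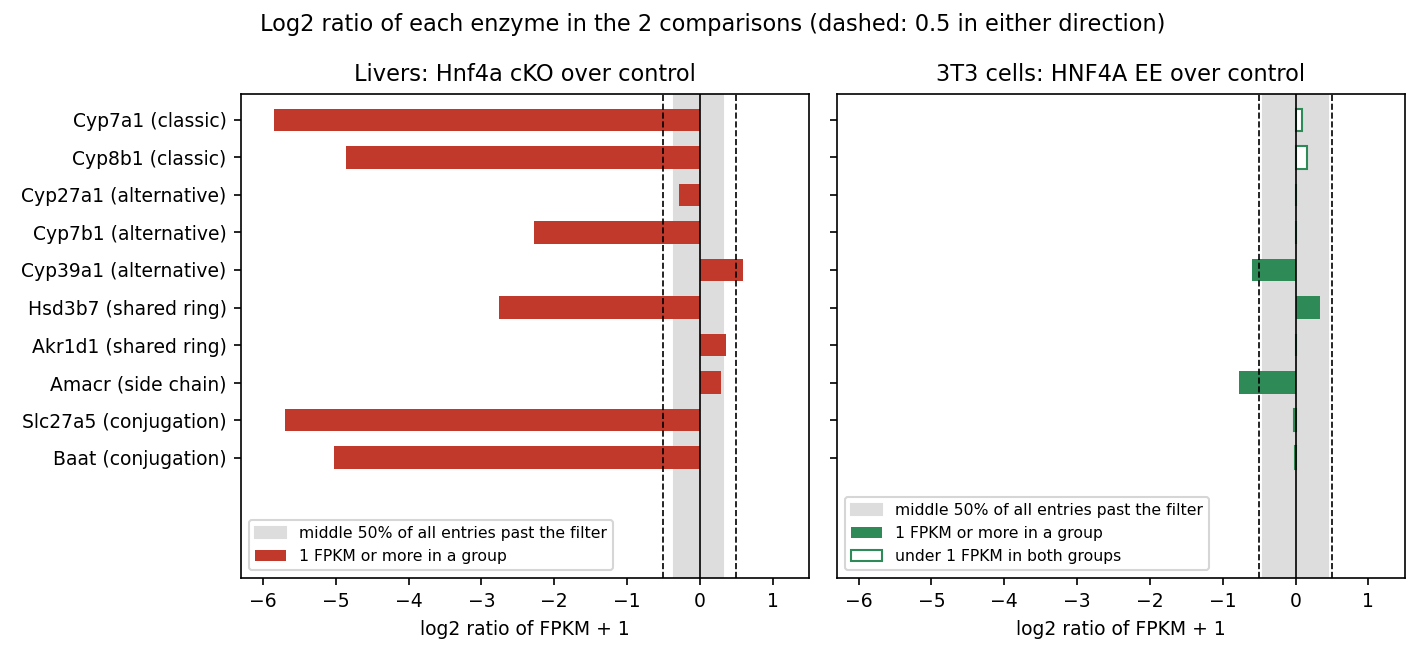
Log2 ratio of FPKM + 1 of each enzyme in cKO over control livers (left) and in HNF4A EE over control 3T3 cells (right), with grey for the middle 50% of all entries at 1 FPKM or more in a group and dashed lines at −0.5 and 0.5. In the livers the bars of the classic and conjugation genes reach −4.86 or lower while *Cyp39a1* reaches 0.60, and in 3T3 cells *Cyp39a1* and *Amacr* pass −0.5.

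The order of the enzymes by level was rearranged. In control livers it ran from *Slc27a5* through *Hsd3b7*, *Cyp27a1*, *Cyp7a1*, *Baat*, *Akr1d1*, *Cyp8b1*, *Amacr* and *Cyp39a1* to *Cyp7b1*. In cKO livers it ran from *Cyp27a1* through *Akr1d1*, *Amacr*, *Cyp39a1*, *Hsd3b7*, *Slc27a5*, *Baat*, *Cyp7b1* and *Cyp7a1* to *Cyp8b1*. Which neighbours in these orders differ beyond their spread cannot be said without values of single livers.

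The FPKM of the 10 genes summed to 1761 in control livers and 541 in cKO livers, 30.7% of the control sum. The classic genes kept 1.49% of their summed level, the conjugation genes 1.93%, the ring enzymes 49.2% and the alternative genes 86.6%. *Cyp27a1* gave 248 of the 308 FPKM of the alternative genes in control livers and 204 of the 267 FPKM in cKO livers. The 86.6% therefore mainly follows *Cyp27a1* and does not describe the route as a whole, since *Cyp7b1* kept 17% of its level. *Slc27a5* made up 31.0% of the sum over the 10 genes in control livers and 1.77% in cKO livers. *Cyp27a1* went from 14.1% to 37.7% of it and *Akr1d1* from 6.46% to 27.0%.

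**Figure D3:**
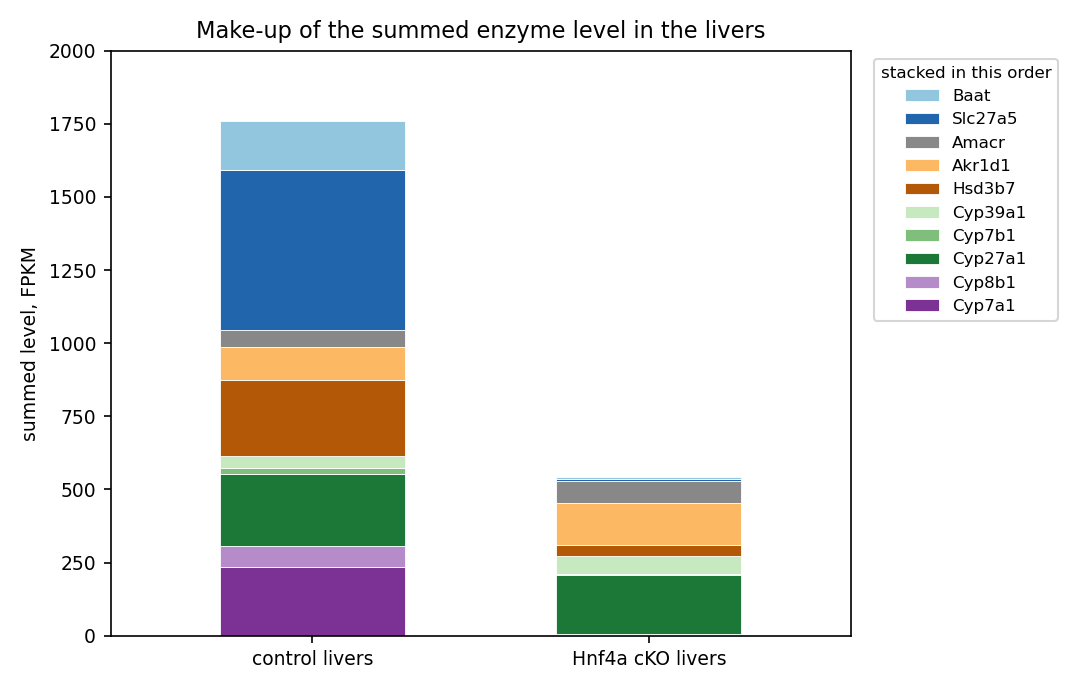
Summed level of the 10 enzymes in FPKM, stacked by gene, for control and *Hnf4a* cKO livers, 1 bar for each group's values. The sum of 1761 FPKM in control livers has its largest block from *Slc27a5*, and the sum of 541 FPKM in cKO livers is mostly *Cyp27a1*, *Akr1d1*, *Amacr* and *Cyp39a1*.

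The genes with values most like those of *Cyp7a1*, by Euclidean distance over the 4 group values of log2(FPKM + 1), were *Cyp2c44*, *Ugt2b1* and *Ugt3a2*, at distances of 0.36, 0.39 and 0.56. *Cyp2c44*, a cytochrome P450, had 261 FPKM in control livers and 2.65 FPKM in cKO livers. *Ugt2b1* and *Ugt3a2*, which encode glycosyltransferases, had 221 and 172 FPKM in control livers and 3.52 and 2.81 FPKM in cKO livers. All 3 stayed at or below 0.0698 FPKM in both groups of 3T3 cells. All 3 belong to gene families whose members can share reads, and the extent of this is unknown.

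Other genes of bile acid synthesis were called lower or not called in the livers. Of 14 such genes, 13 had 1 FPKM or more in a liver group, 8 of these were lower, none was higher and 5 were neither, with a median log2 ratio of −0.66 over the 14, beside 19.1% lower and 15.5% higher over all entries and 34% lower among those with 20 FPKM or more in control livers. *Cyp2a12*, which rehydroxylates bile acids that gut bacteria have modified, had 529.9 FPKM in control livers and 15.9 FPKM in cKO livers (33.3-fold lower). *Cyp2c70*, which makes the muricholic acids of mice, had 477 FPKM in control livers and 31.7 FPKM in cKO livers (15.0-fold lower). *Akr1c14*, an aldo-keto reductase of steroids, had 195 and 39.4 FPKM, a log2 ratio of −2.28.

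Of the genes that serve the mitochondrial and peroxisomal steps, some were lower and others were not called. *Fdx1*, the ferredoxin that passes electrons to mitochondrial P450 enzymes such as CYP27A1, had 139 FPKM in control livers and 41.5 FPKM in cKO livers (3.35-fold lower). *Fdxr*, which reduces this ferredoxin, had 18.3 and 10.8 FPKM, with a log2 ratio of −0.72. *Slc27a2*, a relative of *Slc27a5* that activates very long chain fatty acids and bile acid precursors, had 752 FPKM in control livers and 208 FPKM in cKO livers (3.61-fold lower). *Acox2*, the oxidase of the bile acid side chain, had 120 FPKM in control livers and 132 FPKM in cKO livers, a log2 ratio of 0.14.

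Of 14 transporter genes 13 had 1 FPKM or more in a liver group, 5 of these were lower, 2 higher and 6 neither, and the median log2 ratio over the 14 was −0.08. These shares are near those of the background, 34% lower among entries with 20 FPKM or more in control livers and 15.5% higher over all entries, so the counts say nothing particular of transporters. Among uptake carriers of the blood side, *Slc10a1*, which depends on sodium, had 568 FPKM in control livers and 88.8 FPKM in cKO livers (6.40-fold lower). *Slco1b2*, a sodium-independent carrier, had 456 and 109.8 FPKM (4.15-fold lower), and *Slco1a1* had 39.1 and 0.203 FPKM. *Slco1a4*, a relative of these in the list, was neither, with 92.5 FPKM in control livers and 72.7 FPKM in cKO livers. The 2 genes called higher encode an exporter and a subunit of one. *Abcb11*, which pumps bile salts into bile, had 154 FPKM in control livers and 369 FPKM in cKO livers (2.40-fold higher). *Slc51b*, a subunit of the transporter that returns bile acids to blood, had 1.94 and 29.2 FPKM (15.1-fold higher). *Slc51a*, the gene of the other subunit, was listed at 0 in control livers and had 0.148 FPKM in cKO livers. Of the other exporter genes in the list, *Abcb4*, *Abcc2*, *Abcc3* and *Abcc4* were neither, and *Abcg5* and *Abcg8* were lower. *Abcg8*, a subunit of the cholesterol exporter of bile, had 47.9 and 24.0 FPKM, a log2 ratio of −0.97. *Slco1a1* is close in sequence to other members of its family, with which it can share reads.

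Of 13 regulators of the pathway 12 had 1 FPKM or more in a liver group, 6 of these were lower, 1 higher and 5 neither, with a median log2 ratio of −0.50 over the 13. Over all entries 19.1% were lower and 15.5% higher, and 34% were lower among those with 20 FPKM or more in control livers. *Nr0b2*, which encodes a repressor of *Cyp7a1* and *Cyp8b1* (SHP), was the higher one, with 25.7 FPKM in control livers and 109 FPKM in cKO livers (4.24-fold). *Fgfr4*, the hepatocyte receptor through which intestinal FGF15 restrains *Cyp7a1*, had 17.4 FPKM in control livers and 0.845 FPKM in cKO livers. *Ppara*, a nuclear receptor of fatty acid metabolism, had 52.6 and 7.48 FPKM (7.03-fold lower). *Prox1* and *Rxra*, which encode other transcription factors of hepatocytes, were 2.06-fold and 1.93-fold lower, and *Nr1h3*, which encodes the oxysterol receptor LXRα, was 1.85-fold lower. *Nr1h4*, the bile acid receptor FXR, had a log2 ratio of −0.86, and *Nr5a2* (LRH-1), an activator of *Cyp7a1*, had one of −0.10.

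**Figure D4:**
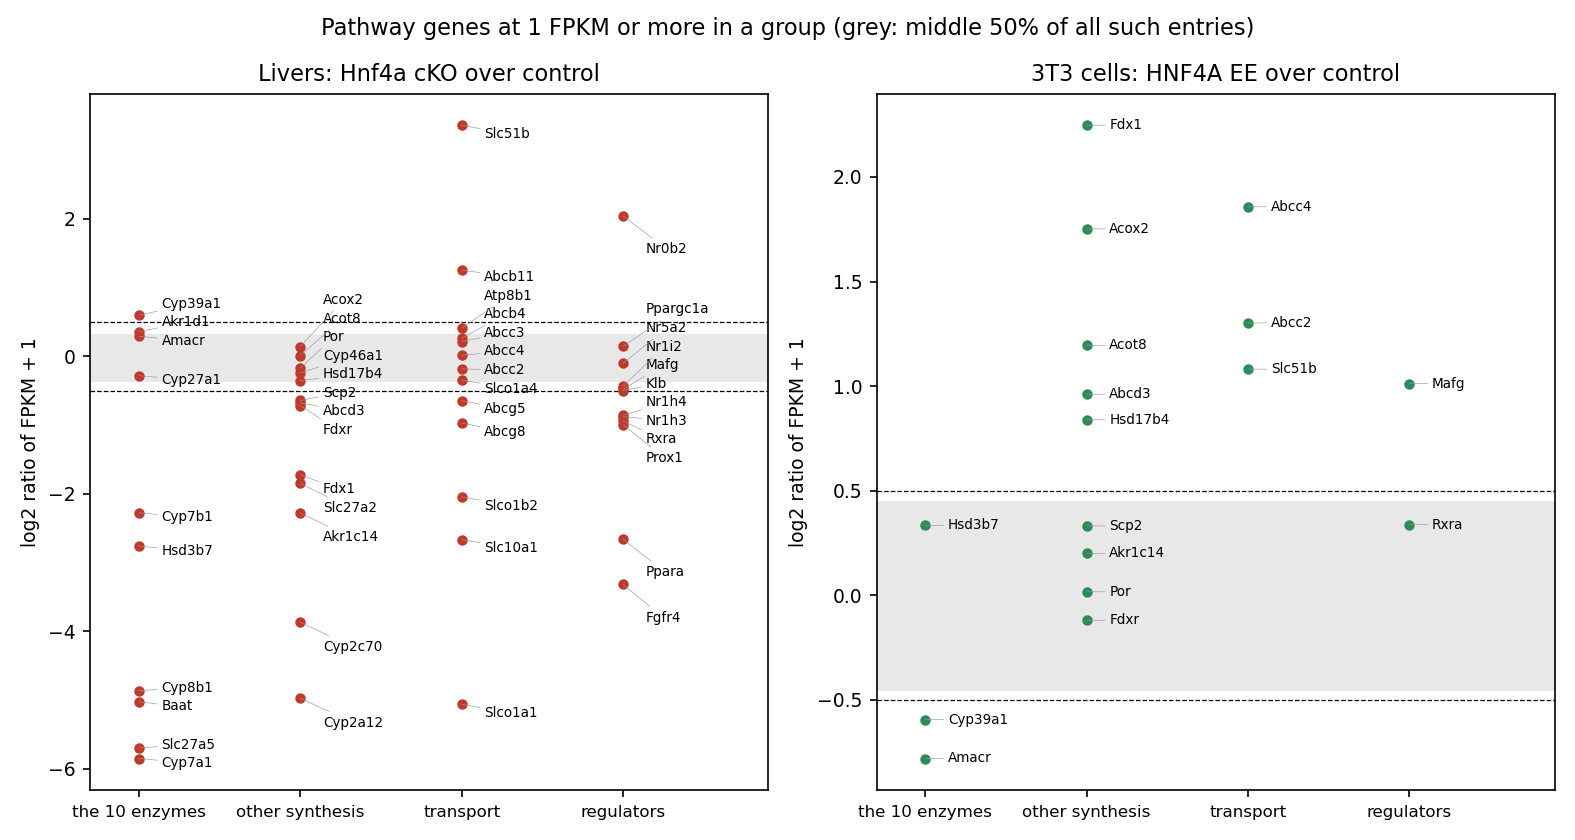
Log2 ratio of FPKM + 1 for the 10 enzymes, other genes of bile acid synthesis, transporters and regulators in cKO over control livers (left) and in HNF4A EE over control 3T3 cells (right), 1 point for each gene with 1 FPKM or more in a group. Grey spans the middle 50% of all such entries and dashed lines mark −0.5 and 0.5, and the vertical axes of the panels differ. In the livers *Slc51b*, *Nr0b2*, *Abcb11* and *Cyp39a1* lie above 0.5, and in 3T3 cells the points below −0.5 are *Cyp39a1* and *Amacr*.

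Markers of cells and of time were compared beside these results. Over all liver entries with 1 FPKM or more in a group 19.1% were lower and 15.5% higher. Among those with 20 FPKM or more in control livers 34% were lower. The lists are short, and counts near these shares say nothing particular of a list. Of 8 hepatocyte markers, 7 had 1 FPKM or more in the livers, 5 of these were lower and none higher. Their log2 ratios ran from −3.16 for *Asgr1* to 0.40 for *Apoa1*, and their summed level was 20190 FPKM in control livers and 16065 FPKM in cKO livers. *Alb* is listed at 0 in both liver groups, so a value of 0 in these tables need not mean that a gene is silent. In whole liver, fewer hepatocytes and less RNA per hepatocyte cannot be told apart. The summed level of 6 Kupffer cell markers was 183 and 203 FPKM, that of 6 endothelial markers 75.5 and 58.4 FPKM, that of 6 stellate cell markers 136 and 106 FPKM, and that of 6 cholangiocyte markers 29.4 and 42.1 FPKM, in control and cKO livers. Of these lists 1 of 6, 1 of 6, 0 of 5 and 4 of 6 markers with 1 FPKM or more were higher, and 0, 2, 2 and 0 were lower. The Kupffer cell marker that was higher is *Marco*, with 3.91 FPKM in control livers and 43.4 FPKM in cKO livers, and the other 5 had log2 ratios from −0.43 to −0.05. The 4 cholangiocyte markers that were higher, *Krt19*, *Epcam*, *Sox9* and *Tspan8*, had under 1 FPKM in control livers and passed the filter only through their level in cKO livers, so they could not have been called lower. Of 14 clock genes, 9 were lower and 4 higher, with *Dbp* at 97.3 FPKM in control livers and 1.44 FPKM in cKO livers and *Arntl* at 0.807 and 15.3 FPKM. *Arntl* and *Npas2* passed the filter only through cKO livers. *Cyp7a1* is known to cycle with the time of day, and the part of these differences in the enzymes' values was not tested.

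The scaling between groups matters for the enzymes that were higher. All listed FPKM summed to 601955 in control livers and 458704 in cKO livers. If both groups are set to the same total, the median log2 ratio of all entries becomes 0.35, 11.8% of entries are lower and 38.7% higher, and the same 6 enzymes stay lower while *Akr1d1* and *Amacr* join *Cyp39a1* as higher. On that scale *Akr1d1* is at 0.75 and *Amacr* at 0.69, both above that median.

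In fibroblasts the comparison asked which of these genes differ when HNF4A is expressed in a cell that is not a hepatocyte. No enzyme was higher in HNF4A EE cells, 2 were lower and 1 was neither, and the other 7 stayed under 1 FPKM in both groups. Over the 10766 entries of 3T3 cells with 1 FPKM or more in a group 23.1% were higher and 22.9% lower. The 7 genes were the 4 classic and conjugation genes together with *Cyp27a1*, *Cyp7b1* and *Akr1d1*. Of 667 entries that had 20 FPKM or more in control livers and under 1 FPKM in control 3T3 cells, 7.65% reached 1 FPKM in HNF4A EE cells, and none of the 7 enzymes did. With so low a share, none of 7 says nothing particular of these enzymes. The levels in livers and 3T3 cells were set across 2 tables that were normalized separately.

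The levels of the 7 genes were all close to 0. *Cyp7a1* had 0.156 FPKM in control and 0.224 FPKM in HNF4A EE cells, and *Cyp8b1* was listed at 0 in control and had 0.116 FPKM in HNF4A EE cells. *Baat* had 0.0683 and 0.0653 FPKM. *Slc27a5* had 0.0162 FPKM in control cells and was listed at 0 in HNF4A EE cells, and *Akr1d1* was listed at 0 in control cells and had 0.00677 FPKM in HNF4A EE cells. *Cyp27a1* and *Cyp7b1* were listed at 0 in both. At such levels no difference was detectable, and the depth that would set the limit is unknown.

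The 3 enzymes that fibroblasts express belong to the alternative, ring and side chain steps. *Hsd3b7* had 17.4 FPKM in control and 22.2 FPKM in HNF4A EE cells, a log2 ratio of 0.33, where in cKO livers it was −2.76. *Amacr* had 9.17 FPKM in control and 4.93 FPKM in HNF4A EE cells, 1.86-fold lower, with a log2 ratio of −0.78. *Cyp39a1* had 3.56 FPKM in control and 2.02 FPKM in HNF4A EE cells, 1.76-fold lower, with a log2 ratio of −0.59. In the livers *Amacr* and *Cyp39a1* had the opposite sign, 0.29 and 0.60, though *Amacr* was not called there.

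Of the 14 other synthesis genes 9 had 1 FPKM or more in a group of 3T3 cells, 5 of them were higher and none was lower, beside 23.1% higher and 22.9% lower over all entries. *Acox2* passed the filter only through its level in HNF4A EE cells and so could only be higher, while the other 8 had 1 FPKM or more in control cells. *Fdx1* had 22.7 FPKM in control and 111.5 FPKM in HNF4A EE cells (4.91-fold higher), and *Acox2* had 0.246 and 3.19 FPKM, a log2 ratio of 1.75. *Acot8*, a peroxisomal thioesterase, had 7.17 and 17.7 FPKM (2.47-fold higher). *Abcd3*, a transporter of the peroxisome membrane, and *Hsd17b4*, the peroxisomal enzyme that follows ACOX2, had log2 ratios of 0.96 and 0.84.

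All 3 transporters with 1 FPKM or more in a group of 3T3 cells, of 14 in the list, were higher. A gene near 0 in control cells passed this filter only if it was higher in HNF4A EE cells, as *Abcc2* and *Slc51b* were, so the count leans upwards. *Abcc4*, an exporter of bile acids and other anions, had 4.16 FPKM in control and 17.7 FPKM in HNF4A EE cells (4.25-fold higher). *Abcc2*, an exporter into bile, had 0.00998 and 1.49 FPKM, and *Slc51b* was listed at 0 in control cells and had 1.12 FPKM in HNF4A EE cells. Of the 13 regulators only *Mafg* and *Rxra* had 1 FPKM or more, and *Mafg*, which encodes a small MAF factor that represses bile acid synthesis genes in mice, was higher, with 43.5 and 88.8 FPKM.

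Markers of fibroblasts and hepatocytes were also compared, and a change of cell identity was not tested. Of 7 fibroblast markers 6 had 1 FPKM or more in a group. Of these, 4 were lower in HNF4A EE cells, 1 was higher (*Thy1*, which passed only through those cells) and *Fn1* was neither. Over all 3T3 entries with such a level 22.9% were lower and 23.1% higher. The summed level of the 7 fibroblast markers was 8129 FPKM in control and 452 FPKM in HNF4A EE cells. Of 8 hepatocyte markers only *Fah* had 1 FPKM or more, and it was 2.31-fold higher in HNF4A EE cells. Set to the same FPKM total, the calls of the 10 enzymes in 3T3 cells were the same, while over all entries 18.9% were lower and 29.8% higher.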

How the data were processed

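RNA was extracted with TRIzol from pulverized livers and from 3T3 cells. The authors mapped the reads with STAR (2.5.0b) on mm10 and computed FPKM with Cufflinks (2.2.1), the versions being those of the submitters' processing notes. For annotation, strandedness and normalization across libraries, the settings were not given in the material used. The deposited tables, in the layout of Cuffdiff, hold 1 FPKM per gene entry and group. Their columns of log2 fold changes, test statistics, p-values, q-values and significance are the authors' own comparison and were not used here. The line of 1 entry was emptied in both tables for this work.

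Ratios were computed with pandas 2.3.3 and numpy 2.4.6 in Python 3.11.15 as log2 of FPKM + 1 in the changed group over FPKM + 1 in its control, which understates changes of low genes. Without values of single samples or counts no test was run. Genes named beside the 10 enzymes were, from each list, up to 6 with the largest absolute log2 ratio in the livers at 5 FPKM or more in a group, those called in 3T3 cells, and the 3 entries nearest to *Cyp7a1*. The liver values of *Acox2*, *Slco1a4*, *Nr1h4* and *Nr5a2* were picked for mention after they were seen. The 10 enzymes, the lists and the rules were chosen with earlier results of these data known. The steps were tested on simulated data with 200 changed entries in each table, and 200 were recovered. These entries lay well above the filter and their folds were set past the threshold. The run therefore checks the arithmetic only, and not small changes, low levels or the spread between samples. Gene positions are from GENCODE M21 on GRCm38, the assembly of mm10, and promoter windows from RefSeq on GRCm38.p6. The list of regulators leaves out 1 gene that is not reported here. Alternatives were other pseudocounts, filters, thresholds and scalings.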

Additional observations from a re-analysis of the deposited data

How the results depend on the processing

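The 6 enzymes lower in cKO livers were 6 under every alternative run (pseudocounts of 0.1 and 0.01 FPKM, centring on the median entry, equal FPKM totals, no filter, a filter of 5 FPKM and a log2 threshold of 1). The count of enzymes higher in cKO livers was 1, but 3 with equal FPKM totals and 0 at a log2 threshold of 1. In HNF4A EE cells 2 enzymes were lower, but 1 with a filter of 5 FPKM, which removes *Cyp39a1*, and 0 at a log2 threshold of 1. The median log2 ratio in 3T3 cells was 0 over the 10 enzymes and −0.59 over the 3 with 1 FPKM or more. The log2 ratio of *Cyp8b1* in the livers, −4.86, was −5.51 and −5.59 with pseudocounts of 0.1 and 0.01 FPKM. No other ratio of an enzyme with 1 FPKM or more in a group moved by 0.5 or more under these alternatives. *Cyp27a1* in the livers, which was not called, was the only one to change sign, from −0.28 to 0.11 with equal FPKM totals. With equal FPKM totals, 5 of 13 other synthesis genes in the livers were lower and 1 higher. Of 13 transporters 4 were lower and 5 higher, and of 12 regulators 4 were lower and 2 higher. Over all entries 11.8% were lower and 38.7% higher on that scale. *Scp2*, *Abcd3*, *Fdxr*, *Abcg5*, *Nr1h4* and *Nr1h3* were no longer called lower, while *Acox2*, *Abcb4*, *Abcc3*, *Atp8b1* and *Ppargc1a* were newly called higher.

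No paired analysis was possible because the tables hold 1 value per group, and leaving out single samples could not be run for the same reason. Read depth is unknown, so values near 0 FPKM have no stated precision.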
